A study of Drosophila melanogaster with 18 samples.

Results

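Gene expression in the brains of male flies was compared between 14 and 3 days after eclosion, with 3 libraries of 14-day males against 3 libraries of 3-day males, or 6 of the 16 libraries with values. The flies were virgin Oregon wild-type Drosophila melanogaster, sexed within hours of eclosion and kept on cornmeal agar under a 12 h light and 12 h dark cycle at 25 °C. They carried no transgene or treatment, and by their labels the groups compared differed by age. Whether dissection, RNA extraction or sequencing was shared between the ages is not given in the sources used here. The flies were snap-frozen, and each library was made from 100 pooled brains dissected from them. The question was which genes change in the male brain as young adults mature. Males of 7 days (3 libraries) show where a change lay between both ages, and 14-day females (2 libraries) and 3-day females (3 libraries) show whether the other sex changed alike.

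A fly brain holds neurons and the glia that feed, wrap and seal them, and the outer glia form a blood-brain barrier. The optic lobes adjoin the retina, whose photoreceptors use opsins and a phospholipase C cascade. A dissected brain can also carry fat body, tracheae, cuticle and muscle of the head, and a newly eclosed fly is still completing its cuticle and eyes.

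Replicate 1 of the 14-day males stood apart, and the fold changes below are given with it and, for most genes, also without it. It had the fewest reads, 2924715, where the other 5 libraries had 3240636 to 8664494. Its Spearman correlations with replicates 2 and 3 of its own group were 0.884 and 0.845, while those 2 correlated at 0.965. The 100 genes with the most reads took 11.4% of its reads, and 20.9% to 25.4% in the other 5. Of 13 neuron markers, such as elav and nSyb, and 8 glia markers, such as repo and alrm, each was detected in males. The summed neuron markers reached 19002 normalized reads in that library, against 49621 and 52661 in replicates 2 and 3 of the 14-day males and 76655 to 82682 in 3-day males. This sum rests mostly on para, Syt1 and nSyb, and of the 13 markers 2 passed lower and 0 higher. Without that library elav overlapped between both ages, with 2455 and 2537 at 14 days and 3247, 2225 and 2715 at 3 days. The summed gut markers were 931.4 in that library, against 262.8 and 256.5 in replicates 2 and 3 and 171.4 to 299 in 3-day males. Photoreceptor markers were abundant at both ages, with summed levels of 9968 to 19074 in 14-day males and 22769 to 35922 in 3-day males. The part of these differences in the results below was not tested.

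Genes were called at an adjusted p of 0.1 in limma, on log2(normalized reads + 1), and fold changes are 14-day over 3-day males on that scale. Of 12448 genes tested, 1434 passed (11.5%), 758 higher and 676 lower in 14-day males, and 3755 had an unadjusted p under 0.05. Without replicate 1 of the 14-day males 15 genes passed (0.121%), 1 higher and 14 lower, and 1303 had an unadjusted p under 0.05. All 1434 genes kept the sign of their change without that library, and 1103 of them had an unadjusted p under 0.05. They had been picked in a fit that also held the remaining libraries, so this is no independent support. Leaving out other libraries also moved the count, to 15 without replicate 2 and 4280 without replicate 3 of the 14-day males, 7 without replicate 2 and 34 without replicate 3 of the 3-day males, and 161 and 148 without replicates 2 and 3 of the 14-day females. When libraries were rescaled on abundant genes, 1267 genes passed higher and 408 lower.

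Direction depended on abundance. Of the 6698 genes with a mean of 100 or more normalized reads over the 6 libraries, 658 passed lower (9.82%) and 293 higher (4.37%). That mean covers both ages, so high values at 1 age alone can place a gene among the abundant ones. Of the 5750 scarcer genes, 465 passed higher (8.09%) and 18 lower (0.313%). The values of both ages did not overlap for 1490 abundant genes that were lower (22.2%), 721 abundant genes that were higher (10.8%), 1806 scarcer genes that were higher (31.4%) and 125 scarcer genes that were lower (2.17%). The median log2 fold change was −0.19 for abundant and 1.07 for scarcer genes, and −0.07 and 0.69 without replicate 1 of the 14-day males. Over all tested genes it was 0.24, or 0.16 without that library. After rescaling on abundant genes the balance among these turned, with 578 higher and 398 lower. The medians were then 0.05 for abundant and 1.31 for scarcer genes.

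**Figure D1:**
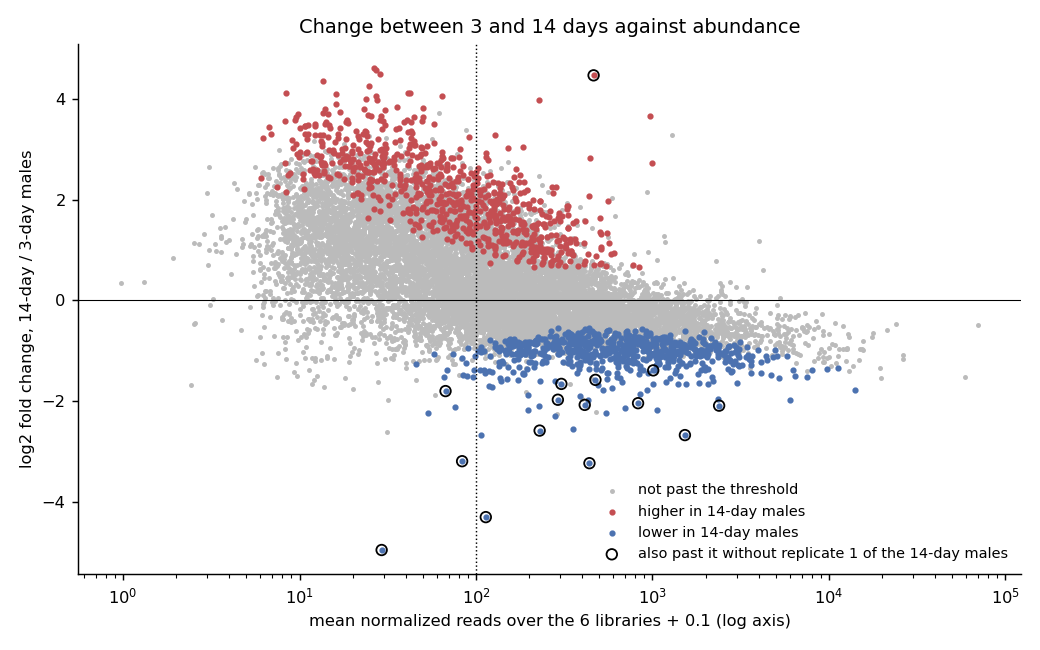
Log2 fold change of 14-day over 3-day males (vertical axis) against the mean normalized reads over the 6 libraries plus 0.1 (horizontal log axis) for the 12448 tested genes. The dotted line marks a mean of 100, called genes are colored, and circles mark the 15 genes also called without replicate 1 of the 14-day males, 14 of which were lower.

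For 7 genes the call held with each of the 6 male libraries of both ages left out in turn, 6 lower and 1 higher in 14-day males. They were the cuticle protein gene Acp1, the peptide precursor Nplp3, the myosin light chain Mlc2, the barrier transporter Mdr65, the adhesion protein bdl, CG13877 and, as the one that rose, CG34227. Their calls also held with each 3-day and 14-day female library left out.

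CG34227, a gene with no assigned role (2R, 11248126 to 11248610, release 6), had 1238, 637 and 782 normalized reads in replicates 1 to 3 of the 14-day males, against 18.3, 44.4 and 63.9 in those of the 3-day males. The lowest 14-day library was far above the highest 3-day library. Its log2 fold change was 4.47 (adjusted p = 0.0022, SE 0.57), or 4.20 (SE 0.64, adjusted p = 0.016) without replicate 1. In 7-day males it had 99.1, 97.8 and 147, above every 3-day and below every 14-day library. No other abundant gene rose by as much.

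Nplp3 encodes a small secreted peptide precursor (3L, 16318024 to 16318690). It had 132, 46.3 and 87.4 normalized reads in 14-day males, against 900, 891 and 580 in 3-day males. All 14-day values lay far below the 3-day ones, with a log2 fold change of −3.24 (adjusted p = 0.0019, SE 0.39), or −3.59 (adjusted p = 0.0008) without replicate 1 of the 14-day males. Acp1, an adult cuticle protein (2L, 7740562 to 7741537), had 1.21, 1.25 and 0 in 14-day males and 83.2, 60.8 and 28.1 in 3-day males. It was nearly lost at 14 days, though its level was low at either age, and its log2 fold change was −4.96 (adjusted p = 0.0049, SE 0.71), or −5.15 without replicate 1.

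Mlc2, the regulatory light chain of muscle myosin (3R, 30171438 to 30174551), had 254, 424 and 494 normalized reads in 14-day males, against 1649, 4400 and 1946 in 3-day males. The groups did not overlap, although the 3-day libraries differed among themselves, and the log2 fold change was −2.68 (adjusted p = 0.008, SE 0.41), or −2.40 without replicate 1 of the 14-day males. Mdr65, an ABC transporter that pumps drugs and other compounds out at the blood-brain barrier (3L, 6240500 to 6245746), had 107, 200 and 170 in 14-day males and 714, 805 and 483 in 3-day males. It was lower in each 14-day library, with a log2 fold change of −2.08 (adjusted p = 0.0049, SE 0.30), or −1.82 without replicate 1.

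The immunoglobulin-family adhesion protein bdl, known from the layering of photoreceptor axons and their wrapping by glia (2L, 4324554 to 4331830), had 242, 190 and 284 normalized reads in 14-day males. In 3-day males it had 785, 739 and 611. The values were tight at both ages and did not overlap, with a log2 fold change of −1.58 (adjusted p = 0.006, SE 0.24), or −1.60 without replicate 1 of the 14-day males. CG13877, with no assigned role (3L, 218068 to 218663), had 92.1, 104 and 155 in 14-day males and 483, 589 and 324 in 3-day males. The highest 14-day library was below the lowest 3-day library, and the log2 fold change was −1.98 (adjusted p = 0.0047, SE 0.27), or −1.82 without replicate 1.

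**Figure D2:**
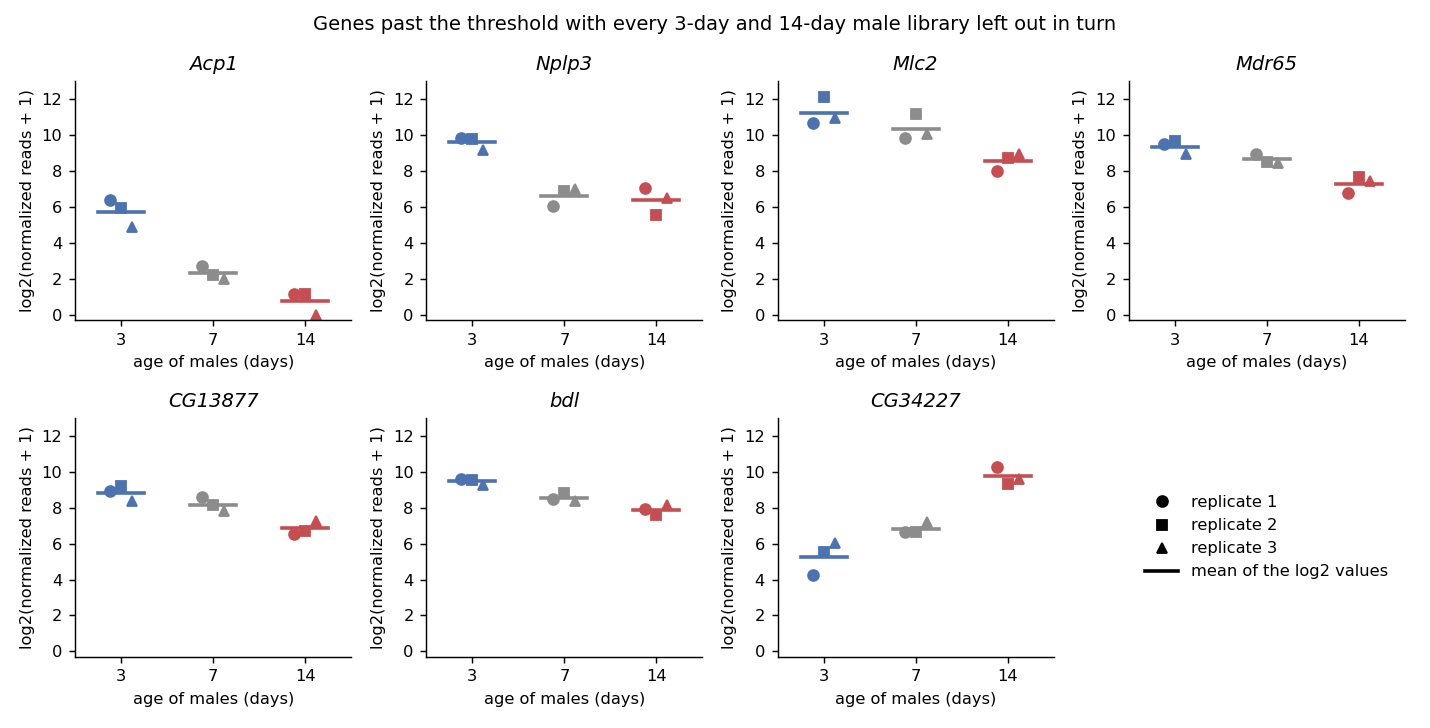
Log2(normalized reads + 1) in each library of 3-, 7- and 14-day males for the 7 genes called with each 3-day and 14-day male library left out. Symbols are replicates and bars the mean of the log2 values, and CG34227 is the gene that was higher at 14 days.

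The 8 other genes called without replicate 1 of the 14-day males were all lower at 14 days: CG7214, CG7203, retinin, Col4a1, Tsp42Ej, Mlc1, sosie and CG4000. Each also passed in edgeR and in DESeq2 with all libraries, and each lost its call without at least 1 of the 6 male libraries. Retinin, a protein of the corneal lens, had 116, 35 and 59.6 normalized reads in 14-day males, against 366, 489 and 310 in 3-day males. Its log2 fold change was −2.59 (adjusted p = 0.055, SE 0.52), or −3.03 (adjusted p = 0.036) without replicate 1. Col4a1, a chain of the type IV collagen of basement membranes, had 1024, 435 and 340 in 14-day males, against 1636, 1499 and 1127 in 3-day males. Here replicate 1 of the 14-day males lay closest to the 3-day libraries, and the log2 fold change was −1.39 (adjusted p = 0.063, SE 0.31), or −1.86 (SE 0.23, adjusted p = 0.0021) without it. Tsp42Ej, a lysosomal tetraspanin known from photoreceptors, had 463, 863 and 1530 in 14-day males, against 3283, 5574 and 2610 in 3-day males (log2 fold change −2.09, adjusted p = 0.021, or −1.66 without replicate 1). Mlc1, the alkali light chain of muscle myosin, had 355, 275 and 281 in 14-day males, against 857, 2143 and 1062 in 3-day males (log2 fold change −2.05, adjusted p = 0.023, or −2.16 without replicate 1). None of these 8 genes overlapped between both ages.

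Of the genes above, 3 lay beside each other. Acp1, CG7214 and CG7203 start within 11608 bases on 2L, and ATPsynGL is the only other gene of the table that starts between them. CG7214 (7743682 to 7744839) had 6.06, 28.8 and 4.16 normalized reads in 14-day males, against 288, 227 and 128 in 3-day males (log2 fold change −4.31, adjusted p = 0.018, or −4.04 without replicate 1). CG7203 (7752170 to 7753186) had 33.9, 8.76 and 11.1 in 14-day males, against 150, 182 and 115 in 3-day males (log2 fold change −3.20, adjusted p = 0.049, or −3.76 without replicate 1). ATPsynGL, under the minimum for testing, had 13.3, 17.5 and 5.55 in 14-day males, against 3.33, 0 and 4.47 in 3-day males. It was low at both ages and did not have the high 3-day values of its neighbours. On 3L, Nplp3 and retinin start 13909 bases apart with 10 genes of the table starting between them. Among those 10, CG33061 had 173, 35 and 39.5 in 14-day males and 39.9, 13.1 and 12.8 in 3-day males (log2 fold change 1.67, adjusted p = 0.17). Of the 10, 6 were tested and none of those passed the threshold. These stretches were chosen after the values were seen.

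Genes of the eye were lower at 14 days. Of 40 abundant genes of phototransduction and the retina, 15 passed lower and 0 higher, against the 9.82% lower over all abundant genes. Their median log2 fold change was −0.90, or −0.63 without replicate 1 of the 14-day males, and 36 of the 40 were below 0 with or without it. Without it 2 of the 40 passed, retinin and Tsp42Ej. Among these were chp (chaoptin, the adhesion protein of rhabdomeres), with 319, 160 and 296 normalized reads in 14-day males, against 1328, 1329 and 752 in 3-day males. The groups lay well apart, with a log2 fold change of −2.15 (adjusted p = 0.055, SE 0.44), or −2.33 (adjusted p = 0.11) without replicate 1. Gbeta76C, the G protein beta subunit of the eye, had 81.2, 60.1 and 170 in 14-day males, against 932, 545 and 337 in 3-day males (log2 fold change −2.55, adjusted p = 0.055, or −2.44 without replicate 1). The retinal protein rtp, a partner of the ninaC myosin, had 56.9, 78.8 and 150 in 14-day males, against 656, 475 and 262.4 in 3-day males (log2 fold change −2.29, adjusted p = 0.078, or −1.98 without replicate 1).

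Of 7 opsins, Rh4 and Rh2 passed lower, where 9.82% of all abundant genes did. The median log2 fold change of all 7 was −1.14, or −1.39 without replicate 1 of the 14-day males. Rh4, of ultraviolet-sensing inner photoreceptors, had 195, 140 and 387 normalized reads in 14-day males, against 905, 1022 and 478 in 3-day males (log2 fold change −1.79, adjusted p = 0.091). Rh2, the opsin of the ocelli, had 696, 544 and 866 in 14-day males, against 2410, 2999 and 1047 in 3-day males (log2 fold change −1.51, adjusted p = 0.093). Neither opsin overlapped between both ages, and neither call held without replicate 1 of the 14-day males. Their log2 fold changes without it were −1.70 and −1.51, and each call was lost in 5 of the 6 fits that left out 1 male library. Of 14 abundant eye pigment genes 0 passed in either direction, with a median of −0.08. In pooled brains fewer cells of a type, less RNA per cell and less retina left on at dissection cannot be told apart.

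Muscle genes were lower as well. Of 29 abundant muscle genes, 14 passed lower and 0 higher, where 9.82% of all abundant genes passed lower. The median log2 fold change of the 29 was −0.96 with and without replicate 1 of the 14-day males. Without that library 2 of the 29 passed, both myosin light chains. Besides both myosin light chains, the largest falls that passed were those of TpnC47D (troponin C), Tm2 (tropomyosin) and the actins Act57B and Act87E. Tm2 had 133, 223 and 190 normalized reads in 14-day males, against 564, 1375 and 791 in 3-day males. Each 14-day library was lower than each 3-day library, with a log2 fold change of −2.25 (adjusted p = 0.021, SE 0.39), or −2.04 (adjusted p = 0.11) without replicate 1. Act57B had 271, 377 and 337 in 14-day males, against 666, 3254 and 1490 in 3-day males (log2 fold change −2.18, adjusted p = 0.063, or −2.05 without replicate 1). TpnC47D had 26.6, 8.76 and 60.3 in 14-day males, against 88.2, 280.1 and 173 in 3-day males (log2 fold change −2.68, adjusted p = 0.076, or −2.74 without replicate 1). Act87E changed by −2.18 (adjusted p = 0.069). The actin genes are near-identical in sequence, so how their reads were split is uncertain. The summed muscle markers were 4869, 4583 and 3830 in 14-day males, against 7919, 17892 and 9770 in 3-day males. Replicate 2 of the 3-day males, the highest of all, was also the library whose omission left 7 calls.

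Genes of energy metabolism made up the largest share of falls among the groups examined. Of 37 abundant genes of respiratory complexes II to V 28 passed lower, of 32 of complex I 23, of 22 of the citric acid cycle 11 and of 14 of glycolysis 9, where 9.82% of all abundant genes did. In these 4 groups 0 genes passed higher. Their median log2 fold changes were −0.998, −0.92, −0.83 and −1.08, and −0.69, −0.57, −0.50 and −0.67 without replicate 1 of the 14-day males. All 37 and all 32 abundant genes of the respiratory complexes were below 0 with and without that library. Without it, however, 0 of these 4 groups' genes passed. Scarcer members went the other way, with medians of 1.69 over 7 complex I and 1.35 over 11 complex II to V genes. Without replicate 1 these were 1.06 and 0.90, and over all scarcer genes the median was 1.07. Of these scarcer members 0 passed higher and 1 lower, while 6 and 4 were higher without overlap, beside 31.4% of all scarcer genes. Gapdh1, the glycolytic glyceraldehyde-3-phosphate dehydrogenase, had 705, 1174 and 1579 normalized reads in 14-day males, against 2581, 4087 and 2981 in 3-day males. The log2 fold change was −1.53 (adjusted p = 0.049, SE 0.29), or −1.21 (adjusted p = 0.12) without replicate 1. Pfk, the committed step of glycolysis, had 419, 701 and 887 in 14-day males, against 1293, 1724 and 1444 in 3-day males (log2 fold change −1.21, adjusted p = 0.063, or −0.90 without replicate 1). ATPsynB, of the ATP synthase stalk, had 587, 1154 and 1733 in 14-day males, against 2085, 3433 and 2960 in 3-day males (log2 fold change −1.39, adjusted p = 0.07, or −0.97 without replicate 1). In each of these 3 genes the groups did not overlap and replicate 1 was the lowest 14-day library. Mpcp1, a mitochondrial phosphate carrier, had 89.6, 92.6 and 61.7 in 14-day males, against 240, 573 and 301 in 3-day males (log2 fold change −2.10, adjusted p = 0.049, or −2.18 without replicate 1).

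Of 82 abundant cytosolic ribosomal protein genes 0 passed in either direction, and their median of −0.16 was close to the −0.19 of all abundant genes. It turned to 0.08 when libraries were rescaled and 0.30 with quantile normalization, where RpS2 passed higher. Of 65 abundant mitochondrial ribosomal protein genes 3 passed lower (median −0.46, or −0.14 without replicate 1 of the 14-day males), a share below the 9.82% of all abundant genes.

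Genes of electrical and synaptic signaling were mostly lower. Of 32 abundant voltage-gated channel genes and their subunits 8 passed lower and 0 higher, where 9.82% of all abundant genes passed lower. Of the 32, 28 had lower values in every 14-day than in every 3-day library, against the 22.2% of all abundant genes. The median log2 fold change was −0.84, or −0.54 without replicate 1 of the 14-day males, and 0 passed without it. The potassium channel gene sei had 329, 716 and 1015 normalized reads in 14-day males, against 1459, 1513 and 1464 in 3-day males (log2 fold change −1.25, adjusted p = 0.072, or −0.79 without replicate 1). The sodium channel auxiliary subunit tipE had 202, 340 and 440 in 14-day males, against 556, 684 and 805 in 3-day males (log2 fold change −1.11, adjusted p = 0.072, or −0.80 without replicate 1). In both genes replicate 1 was the lowest 14-day library, and the other 14-day libraries also lay below those of 3-day males.

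Of 39 abundant genes of synaptic vesicles and the active zone 9 passed lower and 0 higher, where 9.82% and 4.37% of all abundant genes did. The median of the 39 was −0.72, or −0.37 without replicate 1 of the 14-day males. Syt7, a synaptotagmin, had 437, 1540 and 1707 normalized reads in 14-day males, against 2588, 3201 and 2218 in 3-day males (log2 fold change −1.33, adjusted p = 0.086, or −0.70 without replicate 1). Among genes of acetylcholine signaling 5 of 16 passed lower and 1 higher. The choline transporter ChT had 200, 1076 and 1008 in 14-day males, against 1699, 1857 and 1731 in 3-day males (log2 fold change −1.55, adjusted p = 0.085, or −0.76 without replicate 1). Replicate 1 was far below the other 14-day libraries in ChT, yet the groups did not overlap. Among GABA and glutamate genes 6 of 23 passed lower and 1 higher, and the GABA receptor subunit Lcch3 changed by −1.01 (adjusted p = 0.079, or −0.69 without replicate 1). The gene that passed higher, GluRIIC, had 371, 134 and 107 in 14-day males, against 56.6, 13.1 and 19.2 in 3-day males (log2 fold change 2.79, adjusted p = 0.079, or 2.25 without replicate 1). Of 37 abundant neuropeptide genes 4 passed lower and 1 higher, shares close to or below the 9.82% and 4.37% of all abundant genes. SIFa had 194, 858 and 957 in 14-day males, against 1583, 2112 and 1428 in 3-day males (log2 fold change −1.63, adjusted p = 0.079, or −0.89 without replicate 1).

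Of 35 abundant genes of glial transport and the barrier 10 passed lower and 0 higher, where 9.82% of all abundant genes passed lower. Without replicate 1 of the 14-day males 1 of the 35 passed, Mdr65. Their median of −0.67 moved little without replicate 1 of the 14-day males, to −0.62, and the summed glia markers were 4772, 4502 and 4619 in 14-day males, against 8691, 9690 and 8788 in 3-day males. In that sum replicate 1 lay with the rest of its group. The sum rests mostly on Gs2, nrv2 and Eaat1. Of the 8 glia markers 3 passed lower and 0 higher, and repo, moody, wrapper and Tret1-1 overlapped between both ages. Besides Mdr65, the secreted superoxide dismutase Sod3 had 213, 234 and 340 normalized reads in 14-day males, against 493, 674 and 619 in 3-day males (log2 fold change −1.20, adjusted p = 0.069, or −1.06 without replicate 1). The inward rectifier Irk2 had 309, 287 and 372 in 14-day males, against 531, 629 and 567 in 3-day males (log2 fold change −0.84, adjusted p = 0.078, or −0.81 without replicate 1). Both genes were lower in each 14-day library than in any 3-day library. Of 39 abundant lysosomal genes 11 passed lower and 1 higher, beside the same 9.82% lower over all abundant genes. The sterol carrier Npc2a had 219, 272 and 376 in 14-day males, against 544, 763 and 519 in 3-day males (log2 fold change −1.09, adjusted p = 0.063, or −0.91 without replicate 1). The growth factor Idgf4, of the chitinase family, had 361, 329 and 392 in 14-day males, against 736, 1162 and 866 in 3-day males (log2 fold change −1.33, adjusted p = 0.055, or −1.33 without replicate 1).

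**Figure D3:**
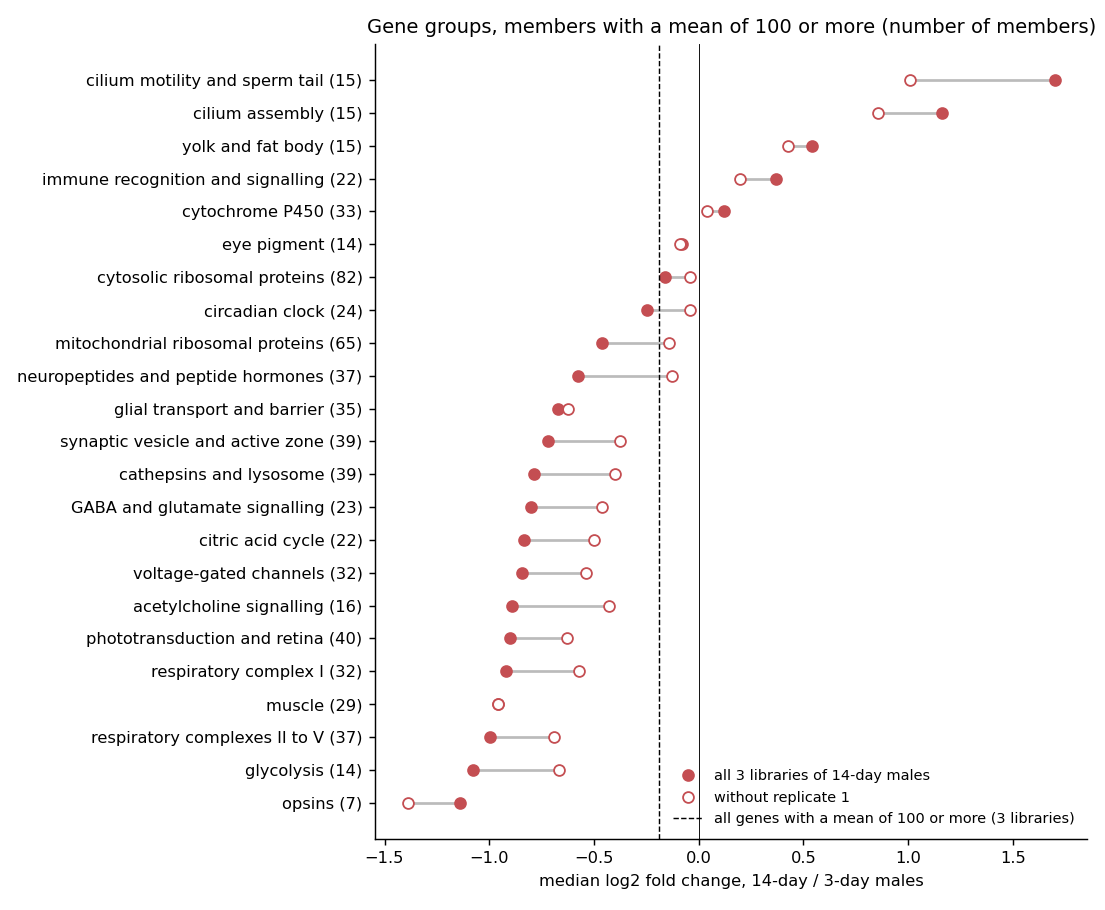
Median log2 fold change of 14-day over 3-day males (horizontal axis) for groups of genes with a mean of 100 or more, with the number of members in brackets. Filled points use all 3 libraries of 14-day males and open points leave out replicate 1, and the dashed line is the −0.19 of all abundant genes. Among the 23 groups drawn, opsins, glycolysis, respiratory complexes and muscle lay lowest, and genes of cilia highest. Other groups, such as 6 pickpocket channels with a median of 1.95, are not drawn. Members were admitted by their mean over both ages, so high 14-day values alone could place a gene among them.

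**Figure D4:**
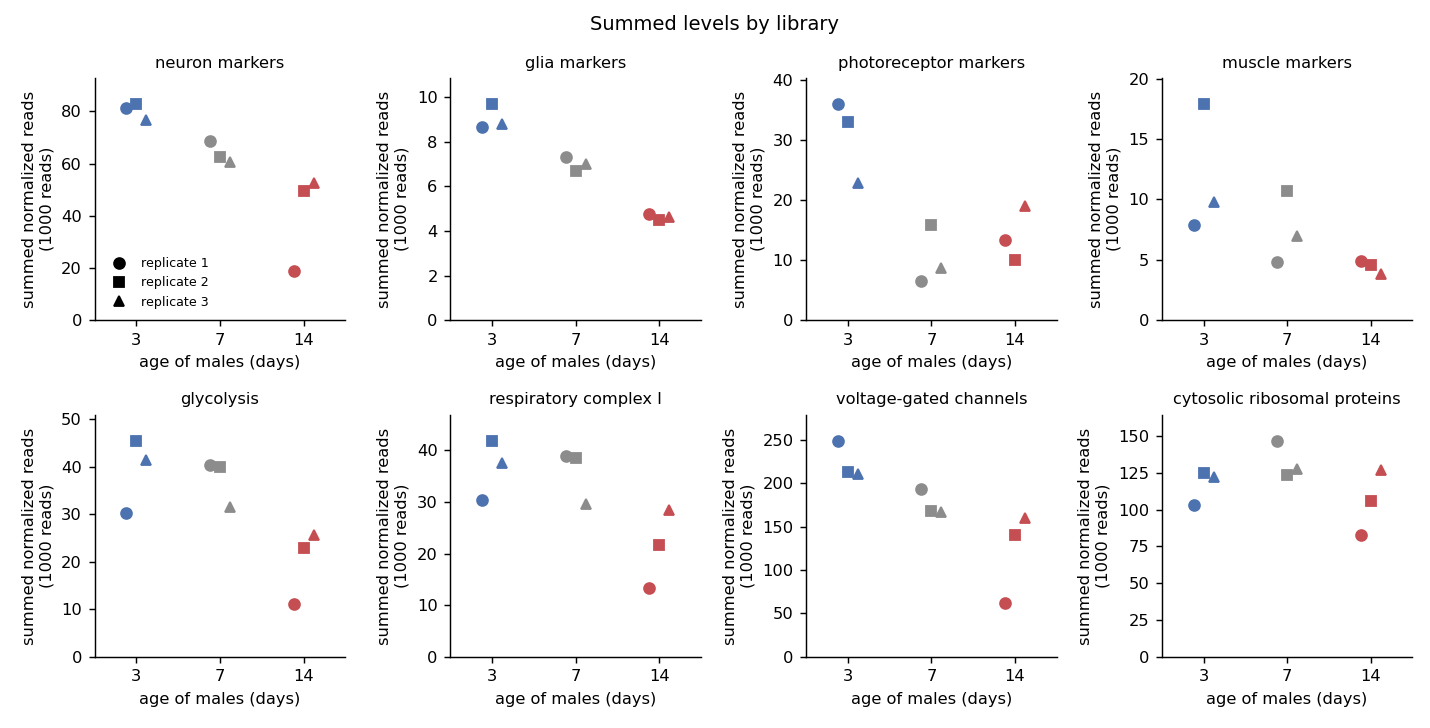
Summed normalized reads, in units of 1000, over the marker genes of 4 cell types and the genes of 4 groups in each library of 3-, 7- and 14-day males. Replicate 1 of the 14-day males was the lowest library for neuron markers, glycolysis, complex I, channels and ribosomal proteins, but not for glia, photoreceptor or muscle markers.

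Among abundant genes that rose, 3 larval serum proteins, storage proteins made by the fat body, stood with CG34227 among the 12 largest rises. Lsp2 had 646, 502 and 141 normalized reads in 14-day males, against 34.9, 10.7 and 26.8 in 3-day males. Every 14-day library was higher, with a log2 fold change of 3.98 (adjusted p = 0.069, SE 0.91), or 3.56 (adjusted p = 0.32) without replicate 1. Lsp1beta had 627, 113 and 104 in 14-day males, against 26.6, 15.6 and 28.7 in 3-day males (log2 fold change 3.03, adjusted p = 0.069, or 2.19 without replicate 1). Lsp1gamma had 386, 128 and 78.3 in 14-day males, against 63.2, 23 and 5.75 in 3-day males (log2 fold change 2.86, adjusted p = 0.082, or 2.21 without replicate 1). Replicate 1 had the highest level of each of the 3, and none of the calls held without it. Of 15 abundant yolk and fat body genes 5 passed higher and 0 lower, where 4.37% of all abundant genes passed higher. Lsp2, Lsp1beta and Lsp1gamma averaged 24.1, 23.7 and 30.7 normalized reads in 3-day males. They entered the abundant class only through their 14-day values, so the count beside 4.37% gives no support for a rise of the group. The median of the 15 was 0.54, or 0.43 without replicate 1. The summed fat body markers were 6602, 5675 and 4402 in 14-day males, against 5418, 5015 and 4782 in 3-day males, and overlapped. Of the 12 markers, however, 4 passed higher and 0 lower, with a median of 0.84, or 0.20 without replicate 1, and the sum rests mostly on apolpp and FASN1, which did not pass. Their part in these rises was not tested.

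Among the 12 largest rises were 3 genes of serine proteases or a homologue, chosen for their size and not as a family. Of 5 abundant digestive enzyme genes, 0 passed in either direction. CG8329, a serine protease, had 1821, 2201 and 1179 normalized reads in 14-day males, against 49.9, 477 and 94.5 in 3-day males (log2 fold change 3.66, SE 1.09, adjusted p = 0.085, or 3.60 without replicate 1). CG3088, a protease homologue, had 1839, 1932 and 1102 in 14-day males, against 148, 803 and 112 in 3-day males (log2 fold change 2.72, adjusted p = 0.099, or 2.61 without replicate 1). CG9676, a serine protease, had 922, 771 and 597 in 14-day males, against 56.6, 204 and 99 in 3-day males (log2 fold change 2.83, adjusted p = 0.096, or 2.69 without replicate 1). In all 3 replicate 2 was the highest of the 3-day males. Replicate 1 of the 14-day males did not decide these fold changes, though the calls were lost without it. CG31704, with no role assigned here, had 254, 307 and 304 in 14-day males, against 53.3, 48.5 and 38.3 in 3-day males (log2 fold change 2.61, SE 0.64, adjusted p = 0.072, or 2.697 without replicate 1).

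Genes of cilia, which sensory neurons of the body surface carry, were higher. Of 15 abundant cilium assembly genes 3 passed higher and 0 lower (median 1.16, or 0.86 without replicate 1 of the 14-day males). Of 15 abundant genes of cilium motility and the sperm tail 5 passed higher and 1 lower (median 1.70, or 1.01). Over all abundant genes 4.37% passed higher, and over all scarcer genes 8.09%, with a median of 1.07. Some members, such as nompA and Dhc16F with means of 97.1 and 59.2 in 3-day males, were abundant only through their 14-day values. The counts beside 4.37% are therefore partly set by the class itself. The mechanosensory channel nompC had 1000.5, 379 and 219 normalized reads in 14-day males, against 196, 94.5 and 90 in 3-day males (log2 fold change 1.87, adjusted p = 0.08, or 1.27 without replicate 1). The axonemal dynein Dhc98D had 1474, 385 and 330 in 14-day males, against 196, 125 and 103 in 3-day males (log2 fold change 2.06, adjusted p = 0.083, or 1.38 without replicate 1). In both genes replicate 1 was far above the other 14-day libraries, which still lay above all of the 3-day males. Rsph1, a radial spoke protein, went the other way, with 66.6, 161 and 228 in 14-day males, against 429, 406 and 400 in 3-day males (log2 fold change −1.60, adjusted p = 0.079, or −1.10 without replicate 1). The summed markers of antennal and other sensory organs were 2407, 499 and 338 in 14-day males, against 528, 1374 and 2125 in 3-day males, and did not separate the ages.

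Of 22 abundant genes of immune recognition and signaling 2 passed higher, the prophenoloxidase PPO2 and the Toll pathway factor dl, and 0 lower (median 0.37, or 0.20 without replicate 1 of the 14-day males, against −0.19 over all abundant genes). Over all abundant genes 4.37% passed higher. PPO2 had 483, 229 and 150 normalized reads in 14-day males, against 93.2, 91.2 and 106 in 3-day males (log2 fold change 1.39, adjusted p = 0.079, or 0.93 without replicate 1). Markers of hemocytes, the blood cells, moved with it. Of 5 tested, 3 passed higher and 1, Pxn, lower, with a median log2 fold change of 2.00 (1.42 without replicate 1), and their summed levels, which Pxn dominates, were 1351 to 1851 in 14-day males, against 1484 to 2225 in 3-day males. NimC1, a receptor of phagocytic hemocytes, had 133, 76.3 and 39.5 in 14-day males, against 16.6, 9.04 and 8.3 in 3-day males. The part of hemocytes in these values was not tested. Of 5 abundant Bomanins and related peptides BomS3 passed higher, with 219, 134 and 118 in 14-day males, against 54.9, 71.5 and 62.6 in 3-day males (log2 fold change 1.26, adjusted p = 0.086, or 0.99 without replicate 1). Of 10 scarcer ones 2 passed higher, against the 8.09% of all scarcer genes (median 1.26, or 1.13 without replicate 1). In 8 of them every 14-day library was above every 3-day library, against the 31.4% of all scarcer genes. Of 16 scarcer antimicrobial peptide genes 2 passed higher and 8 lay apart in that way (median 1.45, or 1.11), beside the same 8.09% and 31.4%. Of 24 abundant clock genes vri passed higher (log2 fold change 1.51, adjusted p = 0.09, or 1.07 without replicate 1) and Pdfr lower (−0.67, adjusted p = 0.099, or −0.68), shares no larger than those of all abundant genes. The groups did not overlap in PPO2, NimC1, BomS3, vri or Pdfr.

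Scarcer genes were higher as a class. They held 13.1%, 5.81% and 4.26% of the normalized reads in replicates 1 to 3 of the 14-day males, against 3.58%, 2.85% and 2.99% in those of the 3-day males. Each 14-day library was above each 3-day library, and replicate 1 was the farthest away. Of the 5750, 4785 had a log2 fold change above 0, or 4631 without replicate 1. The class median turned to 0.08 with quantile normalization, which removes shifts common to scarce genes. In 7-day males the share was 2.96% to 4.35%, in 14-day females 6.75% and 9.51%, and in 3-day females 2.82% to 4.12%.

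**Figure D5:**
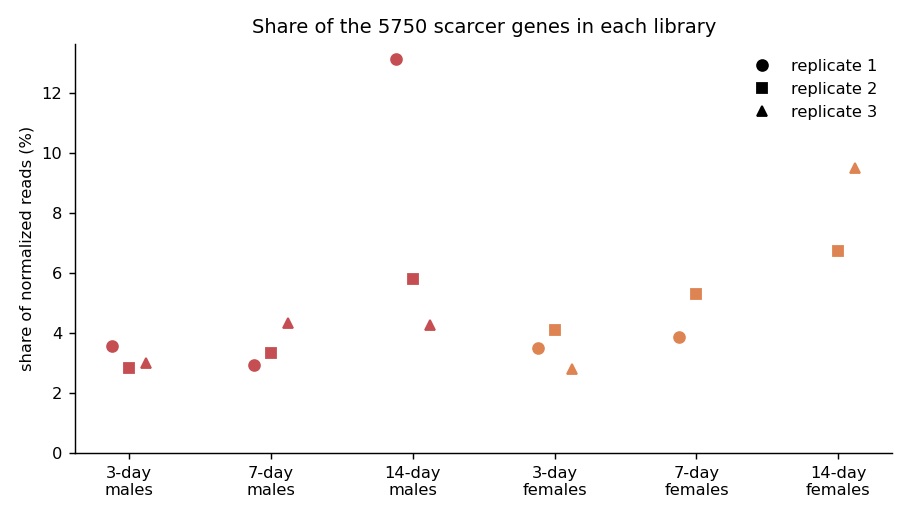
Share of normalized reads, in percent, held by the 5750 scarcer tested genes in each of the 16 libraries, by group. The 14-day males sit at 4.26% to 13.1%, above the 2.85% to 3.58% of 3-day males, and the 14-day females are likewise above the 3-day females.

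The largest rises among scarcer genes that passed were CG43292, CG11162, CG12682, Acp32CD, Art6 and CG11291. CG12682 had 113, 27.5 and 26.3 normalized reads in 14-day males, against 1.66, 0 and 1.92 in 3-day males (log2 fold change 4.49, SE 0.90, adjusted p = 0.055, or 3.82 without replicate 1). Art6, of the arginine methyltransferase family, had 83.6, 28.8 and 30.5 in 14-day males, against 1.66, 3.29 and 0 in 3-day males (log2 fold change 4.25, adjusted p = 0.063, or 3.77 without replicate 1). Both genes were near 0 in 3-day males, and such fitted folds depend on the pseudocount. Of the 8 groups with the most scarcer members, 5 had medians above the 1.07 of all scarcer genes. Their median log2 fold changes were 1.81 over 34 digestive enzyme, 1.63 over 45 ionotropic receptor, 1.53 over 78 cuticle protein, 1.51 over 42 gustatory receptor and 1.46 over 46 odorant receptor genes. The other 3 lay at or below it, with 1.04 over 50 cytochrome P450, 0.80 over 39 glutathione and glucuronosyl transferase and 0.80 over 36 accessory gland genes. The genes that passed higher numbered 7, 8, 11, 3, 6, 6, 2 and 1, in that order, against the 8.09% of all scarcer genes, and none of these held without replicate 1 of the 14-day males. In that fit the 8 medians were 1.24, 1.17, 1.01, 1.06, 0.98, 0.65, 0.51 and 0.78, against 0.69. Of the members, 1 cytochrome P450 gene passed lower, as did Acp1, which had come into the accessory gland list by its spelling and is not counted among the cuticle genes.

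Among scarcer genes that passed and did not overlap, the largest falls besides Acp1 and CG7203 were COX7AL2, CG4000, CG4842 and CG12081. COX7AL2, a cytochrome c oxidase subunit of the 7A type, had 27.9, 16.3 and 34 normalized reads in 14-day males, against 108, 206 and 63.2 in 3-day males (log2 fold change −2.13, adjusted p = 0.079, or −2.20 without replicate 1). CG4000 had 53.3, 25 and 16.6 in 14-day males, against 88.2, 128 and 91.3 in 3-day males (log2 fold change −1.81, adjusted p = 0.072, or −2.25 without replicate 1). CG12081 had 12.1, 88.8 and 82.5 in 14-day males, against 135, 145 and 116 in 3-day males, where replicate 1 set the change, since the log2 fold change was −1.52 (adjusted p = 0.094) with it and −0.61 without it.

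The 7-day males showed where these changes lay, as a description, since those steps share libraries with the comparison. For 9 of the 14 genes that were lower without replicate 1 of the 14-day males, at least 50% of the log2 change was present at 7 days. Nplp3 had 64.2, 115 and 124 normalized reads, retinin 15.1, 75.5 and 33.6, CG7214 5.66, 3.59 and 15.7 and Col4a1 584, 525 and 546 at 7 days, all close to their 14-day levels. Mlc2 had 898, 2327 and 1074, Mdr65 495, 365 and 349 and CG13877 378, 285 and 221 at 7 days, nearer to their 3-day levels on the log2 scale, with 33.0%, 34.2% and 32.9% of the log2 change present. Over the 658 abundant genes that passed lower the median share of the change present at 7 days was 19.1%, and over the 293 that passed higher it was 8.12%. The opsins changed by a median of −2.29 between 3 and 7 days and of 0.96 between 7 and 14 days, and the 40 genes of phototransduction and the retina by −0.36 and −0.11. Within the 7-day males the summed opsins differed widely, at 3657, 8737 and 4492 normalized reads in replicates 1 to 3. Single eye genes differed, since 18.8% of the log2 change of Rh2 and 33.5% of that of Tsp42Ej were present at 7 days, whereas chp was lower at 7 than at 14 days, with 84, 247 and 136. Complex I genes changed by a median of −0.08 and glycolysis genes by −0.07 in that step.

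Female values do not enter the male fold changes, although the model shares 1 estimate of the spread. Their log2 fold changes had the same sign for all 15 genes called without replicate 1 of the 14-day males. Of the 14 that were lower in males, 13 passed lower in 14-day against 3-day females, where 4.61% of all genes did, and in 14 the female values did not overlap, where 17.5% of all genes were lower without overlap. Tsp42Ej did not pass in females (log2 fold change −0.998, adjusted p = 0.11). Nplp3 had 110.5 and 63.7 normalized reads in 14-day females, against 870, 591 and 403 in 3-day females (log2 fold change −2.80, adjusted p = 0.0058). The barrier transporter Mdr65 had 199 and 232 in 14-day females, against 666, 393 and 870 in 3-day females (log2 fold change −1.50, adjusted p = 0.011). CG34227 was scarce in females, with 32.2 and 18.7 in 14-day females, against 7.85, 35.1 and 9.73 in 3-day females, and these overlapped (log2 fold change 0.76, adjusted p = 0.44).

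The difference of both changes, males minus females, passed for 0 of 12448 genes (0%) in limma, with 664 at an unadjusted p under 0.05 and a smallest adjusted p of 0.33. DESeq2 called 60 genes, limma with array weights 62 and edgeR 0. For CG34227 the difference was 3.71 (SE 0.86, unadjusted p = 0.00041, adjusted p = 0.44). For CG31704, which had 54.1 and 30 normalized reads in 14-day females, against 97.6, 454 and 64 in 3-day females, it was 4.40 (SE 0.97, unadjusted p = 0.00025, adjusted p = 0.39). For CG8329, with 152 and 942 in 14-day females, against 204, 2608 and 1768 in 3-day females, it was 5.03 (SE 1.63, adjusted p = 0.87). For Nplp3 it was −0.43 (SE 0.58) and for bdl 0.03 (SE 0.35).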

How the data were processed

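Total RNA of 100 pooled brains a library was sequenced by the authors, and the submitters' processing notes name Trimmomatic 0.39, STAR 2.7.3a, DESeq2 2.10 and R 2.14.1. The deposited signal values are reads per gene divided by DESeq2 size factors, from which whole reads were recovered within a tolerance of 1e-06. The counter was not given in the sources used here. Of 13439 genes, 13438 were placed on NCBI's table of genome release 6. Log2(value + 1) was compared with limma 3.58.1 in R 4.3.3, with a trended variance, over 12448 genes with a mean of at least 5, all 6 groups of sex and age in 1 model, Benjamini-Hochberg adjusted, at an adjusted p of 0.1. The samples are separate in the labels, and p-values measure the spread between them, which may be partly technical. Genes were named by the 12 largest non-overlapping changes each way among abundant genes, 6 among scarcer ones and up to 3 called members of a list (2 of the most abundant where none passed). Some were left out for brevity, and the 15 genes called without replicate 1 of the 14-day males, the neighbours on 2L and 3L and further values were added after values were seen. Members and lists were chosen with earlier results of these data known. Some members matched to a list by spelling alone were dropped after the first fit, but Acp1 remained in the accessory gland list. In simulated data for this comparison over 11834 genes, 73% of 4-fold and 9% of 2-fold changes were found, with 6 false calls. Those data were drawn gene by gene around the 3-day male means, without a library that stands apart or a shift shared by genes. They therefore give no error rate for the real libraries. Alternatives used edgeR 4.0.16 and DESeq2 1.42.0. Python 3.11.15, pandas 2.3.3 and matplotlib 3.10.9 served for tables and plots.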

Additional observations from a re-analysis of the deposited data

How the results depend on the processing

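For single genes the sign was more stable than the number of calls. Of 1434 called genes, 0 changed sign under any alternative where they were tested, though each alternative drew on libraries that had also picked these genes. The balance of calls among abundant genes did turn with rescaling, to 578 higher and 398 lower. The calls numbered 801 with a pseudocount of 0.5 (160 abundant genes higher and 431 lower, 199 scarcer genes higher and 11 lower) and 2821 with 5 (561 higher and 987 lower, 1241 and 32). They numbered 19 at an adjusted p of 0.05 (1, 15, 1 and 2, in the same order), 615 with quantile normalization (161, 225, 98 and 131) and 1675 after rescaling on abundant genes (578, 398, 689 and 10). With a mean of at least 20, 1172 passed (241 scarcer genes higher), and with no filter 1399. Array weights gave 4563 (995, 1474, 1968 and 126), DESeq2 3305 (793, 1017, 1457 and 38) and edgeR 76 (7, 52, 11 and 6). A model of only the groups compared gave 43 (8, 25, 8 and 2) and one of the 3 male groups 49 (6, 33, 8 and 2). Leaving out 1 library gave 7 to 4280 calls (1 to 976, 5 to 1657, 0 to 1565 and 1 to 82), the highest without replicate 3 of the 14-day males and the lowest without replicate 2 of the 3-day males; those without a female library were added after seeing the data. In combinations added after seeing the data, without replicate 1 of the 14-day males, 13 passed with rescaling (1, 10, 0 and 2), 16 in edgeR (1, 12, 0 and 3) and 195 in DESeq2 (15, 176, 2 and 2). The residuals of same-numbered 14-day and 3-day males correlated at 0.43, 0.003 and 0.17, and those of differently numbered ones at −0.42 to 0.29. Over pairs from different groups of all libraries the median was −0.05 for the same number and 0.008 for other numbers. With a replicate block 157 passed (18, 104, 32 and 3). Whether replicate numbers mark a shared batch was not tested. For the difference of changes 62 genes passed with array weights and 60 in DESeq2, and leaving out 1 library gave 0 to 1. Among 144 named genes, RpS2 (0.67) and CG46385 (0.68), not called otherwise, turned higher and passed with quantile normalization. The causes of these shifts were not tested. Depth was lowest, at 2924715 reads, in the library that stood apart. In the simulated data changes of 2-fold were mostly not found with 3 libraries a group.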

Other observations

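Genes of the small chromosome 4 were lower at 14 days more often than those of other chromosomes, as a description without a test. Of 76 abundant genes on chromosome 4, 16 passed lower and 0 higher (21.1% lower), where the share on the other large chromosomes ran from 8.92% on the X to 11.2% on 2L. Their median log2 fold change was −0.73, against −0.30 on the X and −0.13 to −0.17 on the arms of chromosomes 2 and 3. Without replicate 1 of the 14-day males it was −0.34, against −0.10 on the X and −0.04 to −0.07 on those arms. The abundant genes of chromosome 4 had a median level of 759.8 normalized reads, against 260.5 to 304.3 on the others, and the part of this in their change was not tested. In 41 of the 76 genes every 14-day male library was below every 3-day male library, which held for 22.2% of all abundant genes. Between 14-day and 3-day females their median was −0.68.

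Of 6 housekeeping genes (Act5C, RpL32, Gapdh1, alphaTub84B, eIF1A and Tbp), Gapdh1 passed lower and the other 5 passed in neither direction, with a median of −0.39 over the 6, or 0.03 without replicate 1 of the 14-day males. The summed levels of these 6 genes were 5150 in replicate 1 and 9738 and 11415 in replicates 2 and 3 of the 14-day males, against 9850, 16315 and 14573 in 3-day males.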
